A study of Mus musculus with 12 samples.

Results

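Dppa2, Dppa3, Dppa4, Dppa5a and Morc1 are genes of the undifferentiated embryonic cell and the germ line, and their transcripts were followed here as mouse embryonic stem cells (ESCs) left pluripotency for mesendoderm, the precursor of mesoderm and endoderm. Members were the assembled loci whose transcripts carried one of these 5 gene names, either as an exact match to a reference transcript or as a new splice form of one. Each name led to 1 locus, so the set held 5 of the 80012 counted loci. The genes were chosen by their measured read counts, which were known to fall during differentiation in these same libraries, so their own levels and fold changes are given as a description, without a test.

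The cells were an Eomes-EGFP reporter ESC line of C57BL/6 origin, in which EGFP sits at the start site of the endogenous Eomes gene, a T-box factor of early mesendoderm. Undifferentiated cells (ESC, day 0) were grown on mouse embryonic fibroblast feeders. Differentiating cells were grown as hanging-drop embryoid bodies to day 3 and sorted for GFP into an Eomes-negative fraction (Eo−) and an Eomes-positive fraction (Eo+). All 3 groups derived from this 1 reporter line. Every group had 4 poly(A) RNA libraries, numbered 1, 2, 5 and 6, from the 4 differentiation sets that the study's methods describe, each with between 648413022 and 837308168 reads counted on loci, so counting error was small for all but the rarest transcripts. Levels are given as CPM, the reads of a locus per 1000000 reads counted in its library after scaling by trimmed means of log ratios (TMM). Eomes itself rose from 47.4 ± 9.62 CPM (SD, n = 4) in ESC to 132.5 ± 22.5 in Eo− and 533.8 ± 101.7 in Eo+, in the order set by the sort. The summed level of 5 mesendoderm markers spanned 91 to 270.3 CPM in ESC, 228.4 to 473.7 in Eo− and 1300.8 to 2215.8 in Eo+, and that of 4 stem cell markers spanned 2190.2 to 3217.7, 1091.4 to 1443.4 and 426.1 to 767.5 CPM. Transcripts used as markers of the feeder layer differed between the groups as well. The summed level of 8 fibroblast genes was 94.4 to 235.4 CPM in ESC, 31.6 to 48 in Eo− and 27.7 to 57.1 in Eo+, with Lum the rarest in ESC at 0.152 ± 0.0799 CPM and no marker at 0 there. Of 7 tested, 6 were lower in Eo+ than in ESC, beside 31.1% of all tested loci. In Eo−, 4 were lower and 1 higher than in ESC, beside 27.9% and 25.2% of all tested loci. Col1a1 was at 65 ± 27.5 CPM in ESC and 1.81 ± 0.552 in Eo−, Thy1 was higher in Eo− at 20.7 ± 4.59 beside 14.3 ± 4.69, and Fbn1 was not called, at 12 ± 4.69 in ESC and 14.4 ± 8.02 in Eo+. The part of feeder RNA in the levels below was not tested.

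The Dppa (developmental pluripotency associated) genes share a name through their expression in early embryos, not through a common ancestor. DPPA2 and DPPA4 are related nuclear proteins with a SAP domain that bind DNA as a pair, hold promoters of developmental genes accessible and switch on genes of the 2-cell embryo. DPPA3, also known as Stella or PGC7, is stored in the egg, guards the maternal genome in the zygote against loss of DNA methylation, and restrains the methylation cofactor UHRF1. DPPA5A, also known as ESG1, is an RNA-binding protein with a KH domain. MORC1 is a nuclear ATPase of the MORC family that keeps transposons silent in male germ cells.

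Dppa4, Dppa2 and Morc1 followed each other on the plus strand of chromosome 16 (mm10), and Dppa3 and Dppa5a lay on other chromosomes. Dppa4 (ENSMUSG00000058550) was assembled at chr16:48282504-48301601, Dppa2 (ENSMUSG00000072419) at chr16:48303829-48319723 and Morc1 (ENSMUSG00000022652) at chr16:48431237-48653222. Only 2.23 kb separated the assembled end of Dppa4 from the assembled start of Dppa2, with no other locus between, whereas 111.5 kb separated Dppa2 from Morc1. Of the 10 loci in that interval, 1 bore a gene name, the 5S ribosomal RNA copy n-R5s36, which had no counted read, and 2 were abundant enough to be tested. Dppa3 (ENSMUSG00000046323) occupied chr6:122626410-122630272 on the plus strand and Dppa5a (ENSMUSG00000060461) chr9:78367052-78368177 on the minus strand.

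The assembled loci were longer than the annotated genes on chromosome 16. The Dppa4 locus reached 1.23 kb further upstream and 7.31 kb further downstream than its annotated transcripts, so its exons covered 10808 bases instead of 1534 in the annotated form. Dppa2 began 6.65 kb upstream of its annotated start, with 6 assembled forms beside 1 annotated form. Morc1 also had 6 assembled forms beside 1 annotated form, and its locus ended 22.3 kb past the annotated end. Dppa3 and Dppa5a were not extended. Reads from these extensions were counted with the gene, and the share they contributed was not measured here.

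Sequence shared with other genes differed among the members. Of all stretches of 100 bases, the length of a read, in the annotated Dppa2 transcripts, 23.9% recurred base for base in a transcript of another gene in GENCODE vM21, all of them pseudogenes. The share was 14% for Dppa4, 3.08% for Dppa5a and 0% for Dppa3 and Morc1. Reads that could not be placed uniquely were set aside by the counting, so the levels of Dppa2 and Dppa4 may be understated in every group. The Dppa2 pseudogene Gm9788 was counted at 0.424 to 0.54 CPM in ESC and 0.00632 to 0.0281 in Eo+, and the Dppa4 pseudogene Gm14058 at 1.14 to 1.76 and 0.0116 to 0.0159 CPM, both far under their parent genes.

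All 5 genes were highest in ESC, lower in Eo− and lowest in Eo+, and in every pairwise comparison the 4 libraries of one group lay wholly below those of the other. A fall without overlap was frequent among the 30047 loci tested: it was seen at 27.7% of them between Eo+ and ESC, 25.3% between Eo− and ESC and 20.6% between Eo+ and Eo−. Since the genes were chosen for this fall, nothing is read from their count. In sorted fractions, fewer cells carrying a transcript and less of it in each cell cannot be told apart. The comparisons of Eo− and Eo+ with ESC share the same 4 ESC libraries.

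**Figure D1:**
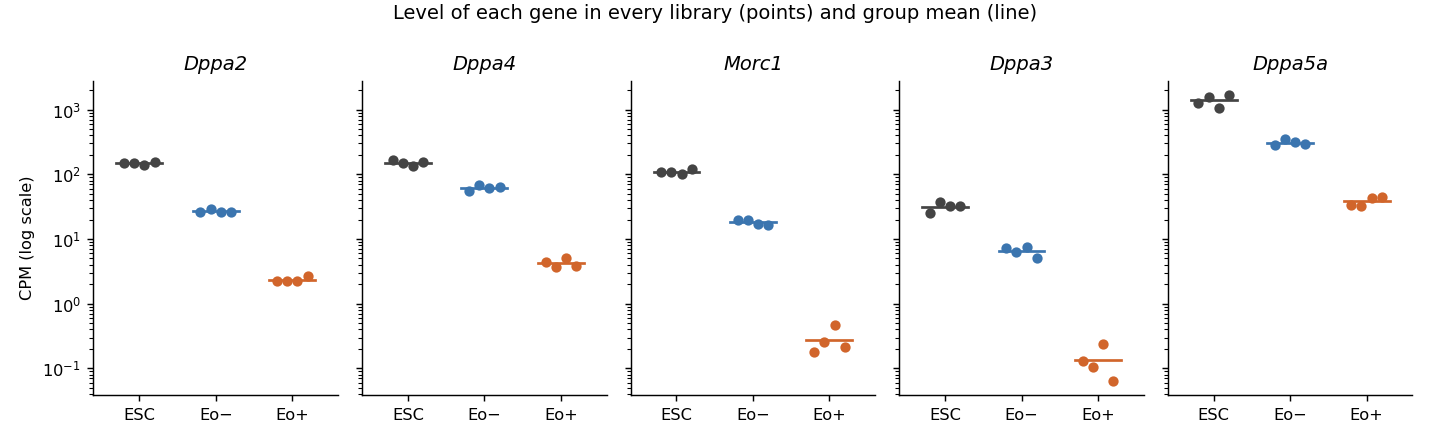
Level of each gene in CPM (log axis) in the 4 libraries of ESC, Eo− and Eo+ (points) with the group mean (line). Eo+ means lie between 0.134 CPM for Dppa3 and 38.6 CPM for Dppa5a, and the Eo+ points of Dppa3 and Morc1 spread most.

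Of the DNA-binding pair, Dppa2 measured 151.4, 151.5, 138.5 and 157.1 CPM in ESC replicates 1, 2, 5 and 6. It measured 26.2, 29.1, 26.4 and 26.6 CPM in Eo− and 2.26, 2.22, 2.24 and 2.71 CPM in Eo+. The libraries of each group were tightly bunched, with a coefficient of variation of 5.27% in ESC, 5.03% in Eo− and 9.98% in Eo+. The fitted log2 fold change was −2.47 ± 0.07 (SE) for Eo− over ESC, −5.99 ± 0.11 for Eo+ over ESC and −3.53 ± 0.12 for Eo+ over Eo−. The mean level was thus 18.1% of the ESC level in Eo− and 1.58% in Eo+.

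Its partner Dppa4 kept more of its transcript in the Eomes-negative cells. Dppa4 measured 166.9, 149.5, 132.6 and 152.5 CPM in ESC, 55.3, 69.3, 61.1 and 62.7 CPM in Eo− and 4.37, 3.65, 5.01 and 3.88 CPM in Eo+. The Eo− mean was 41.3% of the ESC mean, the highest share of the 5 genes, whereas the Eo+ mean was 2.81%. Log2 fold changes were −1.28 ± 0.09 for Eo− over ESC, −5.16 ± 0.14 for Eo+ over ESC and −3.88 ± 0.14 for Eo+ over Eo−.

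The balance of the pair therefore changed with the fractions. Within one library the ratio of Dppa4 counts to Dppa2 counts needs no scaling. It was 1.1, 0.987, 0.958 and 0.97 in the ESC libraries, 2.11, 2.38, 2.31 and 2.36 in Eo−, and 1.93, 1.65, 2.24 and 1.43 in Eo+. Both day 3 fractions lay above ESC in every library, and they overlapped each other. These counts include the extended ends of the Dppa4 locus in all 3 groups.

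Morc1, the third gene of the chromosome 16 group, had the deepest fall of the 5. It measured 106.6, 108.3, 102.8 and 119.7 CPM in ESC and 19.6, 19.6, 17.3 and 16.4 CPM in Eo−. In Eo+ it was down to 0.179, 0.256, 0.467 and 0.213 CPM, from 138, 194, 332 and 135 reads, with replicate 5 the highest. Log2 fold changes were −2.58 ± 0.11 for Eo− over ESC, −8.71 ± 0.22 for Eo+ over ESC and −6.12 ± 0.23 for Eo+ over Eo−. Its mean level was 16.7% of that in ESC in the Eomes-negative cells and 0.255% in the Eomes-positive cells.

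Relative to its neighbour Dppa2, Morc1 was alike in ESC and Eo− and far lower in Eo+, the other fraction of day 3. The ratio of Dppa2 counts to Morc1 counts was 1.42, 1.4, 1.35 and 1.31 in ESC and 1.33, 1.49, 1.53 and 1.62 in Eo−, which overlap. In Eo+ the ratio was 12.7, 8.65, 4.8 and 12.7, above every library of the other groups and unequal among its own.

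**Figure D2:**
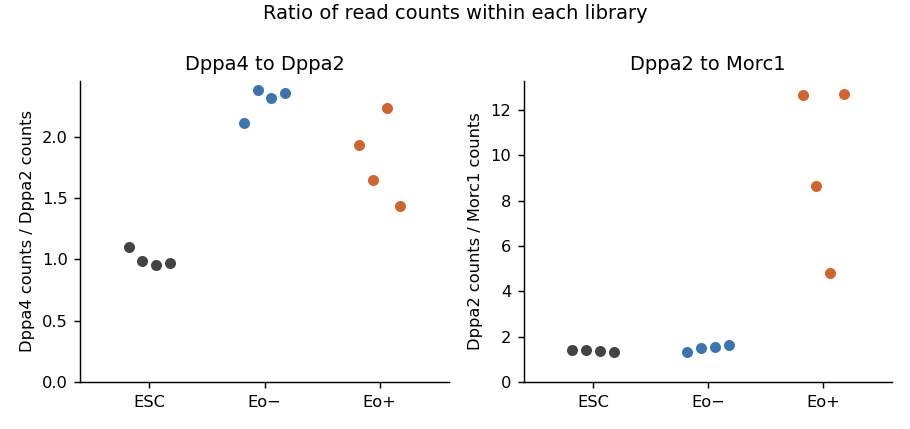
Ratio of read counts of neighbouring chromosome 16 genes within each library (linear axis from 0), Dppa4 over Dppa2 on the left and Dppa2 over Morc1 on the right. The left ratio is near 1 in ESC and from 1.43 to 2.38 in the day 3 fractions, and the right ratio exceeds 4 in Eo+ alone.

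Dppa3, the maternal guard of DNA methylation, was the least abundant of the set in ESC by CPM. Its levels were 25.2, 37.4, 31.8 and 32.2 CPM in ESC, 7.15, 6.27, 7.4 and 5.11 CPM in Eo−, and 0.128, 0.104, 0.24 and 0.0647 CPM in Eo+. The Eo+ values came from 99, 79, 171 and 41 reads and spread 3.71-fold, with replicate 5 again the highest. Log2 fold changes were −2.28 ± 0.17 for Eo− over ESC, −8.00 ± 0.32 for Eo+ over ESC and −5.72 ± 0.34 for Eo+ over Eo−, so that 20.5% of the ESC level was present in Eo− and 0.425% in Eo+.

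Dppa5a, the KH-domain gene, was by far the most abundant. It measured 1244.9, 1570.2, 1059.7 and 1662.3 CPM in ESC, 278.9, 350.1, 312.3 and 296.0 CPM in Eo− and 33.8, 32.4, 43.5 and 44.5 CPM in Eo+. The ESC libraries varied by 20.3% around their mean, the widest spread of the 5 genes in that group. Log2 fold changes were −2.14 ± 0.13 for Eo− over ESC, −5.15 ± 0.19 for Eo+ over ESC and −3.02 ± 0.20 for Eo+ over Eo−. Even in Eo+ this transcript stood at 38.6 ± 6.32 CPM, 2.79% of ESC.

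To order levels between genes, CPM were divided by the exon length of the annotated form in kilobases (FPKM). Per annotated length, ESC held 2236.3 ± 453.7 FPKM of Dppa5a, 98 ± 9.18 of Dppa4, 76.8 ± 4.05 of Dppa2, 35.8 ± 2.39 of Morc1 and 35.5 ± 5.62 of Dppa3, the last pair within its spread. In Eo− the order was Dppa5a at 499.7 ± 49.2 FPKM, Dppa4 at 40.5 ± 3.76, Dppa2 at 13.9 ± 0.699, Dppa3 at 7.27 ± 1.16 and Morc1 at 5.97 ± 0.531. In Eo+ it was Dppa5a at 62.3 ± 10.2 FPKM, Dppa4 at 2.75 ± 0.392, Dppa2 at 1.21 ± 0.121, Dppa3 at 0.151 ± 0.0845 and Morc1 at 0.0914 ± 0.0424, again with Dppa3 and Morc1 within their spread. The place of Dppa4 rests on the length used: over its assembled exons its ESC level was 13.9 FPKM, under the 26.3 FPKM of Morc1.

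The members also differed in how alike their profiles were over the 12 libraries. Likeness was the root mean squared difference between profiles of log2(CPM + 0.1), each centred on its own mean. Dppa2 and Dppa5a were closest at 0.36, followed by Dppa4 and Dppa5a at 0.44, Dppa3 and Morc1 at 0.51 and the pair Dppa2 and Dppa4 at 0.52. Dppa5a and Morc1 were farthest apart at 1.38, and the chromosome 16 neighbours Dppa2 and Morc1 differed by 1.09. Nearness on the chromosome and likeness of profile thus gave different orders.

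Among 12789 other single-gene loci of at least 1 CPM in some group, the profiles most like Dppa2 were those of Hsf2bp (0.18), Tex19.1 (0.20) and Zfp600 (0.21), against a median of 2.48 over all candidates. For Dppa4 the nearest were Mageb16 (0.16), Slc5a11 (0.24) and 4930566F21Rik (0.25), with a median of 2.23. Dppa5a was nearest to Syce1 (0.16), Trap1a (0.22) and Gtsf1l (0.23), with a median of 2.17. Dppa3 was nearest to Nr5a2 (0.28), Triml1 (0.28) and Triml2 (0.34), with a median of 3.02. For Morc1 the nearest were farther off: AU018091 (0.56), Gdf3 (0.61) and Gm7325 (0.62), with a median of 3.49. The nearest profiles lie under the median by their selection. Morc1 at 0.279 CPM and Dppa3 at 0.134 CPM in Eo+ were close to the 0.1 CPM added, so their distances also depend on that constant.

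Whether the loci around the members fell with them was examined within 500 kb, a window that uses position only. Calls were made with limma on voom log2 values at an adjusted p of at most 0.05 over all loci tested. Of 72 named neighbours, 36 passed the filter on low values, 2 of them through ESC alone. Between Eo+ and ESC, 19 were lower and 6 higher, with a median log2 fold change of −0.39, while 59.3% of all tested loci were called, 31.1% lower and 28.3% higher, with a median of −0.00. Between Eo− and ESC, 20 were lower and 4 higher with a median of −0.46, beside 53% of all loci called, 27.9% lower and 25.2% higher, and a median of 0.06. Between Eo+ and Eo−, 11 were lower and 9 higher with a median of −0.06, beside 37.1% of all loci called, 19.7% lower and 17.4% higher, and a median of −0.08. The balance over all loci rested on the scaling. For Eo− over ESC, 7564 loci were called higher and 8373 lower, but 9670 and 6912 with plain library totals, which left 5 neighbours higher and 19 lower. For Eo+ over ESC the split was 8493 higher and 9337 lower, and 9011 and 8860 with library totals. For Eo+ over Eo− it was 5236 higher and 5923 lower, and 4037 and 6946 with library totals, with 7 neighbours higher and 13 lower.

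Around Dppa4, Dppa2 and Morc1, the 3 named neighbours that could be tested, of 11, moved by less than 1 on the log2 scale. Dzip3, a ubiquitin ligase gene 270.9 kb from Morc1, rose in Eo+ from 17.6 ± 4.61 CPM in ESC to 28.9 ± 3.15 (log2 fold change 0.76 ± 0.15, limma adjusted p = 0.000551). C330027C09Rik, 340.7 kb from Morc1, stood at 98 ± 4.09 CPM in ESC, 70.9 ± 7.35 in Eo− and 92 ± 8.22 in Eo+, and was lower in Eo− alone (−0.47 ± 0.09, limma adjusted p = 0.000301), with −0.09 ± 0.08 between Eo+ and ESC. Gm7204, a processed pseudogene 63 kb upstream of Dppa4, was at 2.2 ± 0.35 CPM in ESC and 1.68 ± 0.126 in Eo+ (−0.38 ± 0.15, limma adjusted p = 0.0429), a call lost with library totals and on leaving out any 1 library other than ESC replicate 2 and Eo+ replicate 1. Trat1, the first named gene past Morc1 at 80.7 kb, and the resistin-like genes Retnlb, Retnla and Retnlg were at or near 0 in every group.

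Low transcripts without a gene name were also tested. Of 10 such loci in the chromosome 16 window, 6 were lower in Eo+ than in ESC and 1 higher, with a median of −2.49. In the Dppa3 window 7 of 21 were lower and 2 higher (median −0.26), and in the Dppa5a window 1 of 4 was called, and it was higher (median 0.90), so that 13 of 35 were lower and 4 higher in all, beside 31.1% of all loci called lower. Of the 35, 10 had passed the filter through ESC alone, 4 of them among the 10 on chromosome 16, and such loci had to be lower at day 3. The difference between windows was not tested. A locus at chr16:48323563-48324895 on the plus strand, just past Dppa2, was at 0.363 ± 0.155 CPM in ESC, 0.0669 ± 0.0392 in Eo− and 0.0019 ± 0.00301 in Eo+. One at chr16:48637518-48640888, within the span of Morc1 on its strand, was at 0.389 ± 0.116, 0.0815 ± 0.0304 and 0.00066 ± 0.00132 CPM. Opposite the end of Dppa2, a locus at chr16:48319103-48319440 on the minus strand was at 0.359 ± 0.083, 0.0784 ± 0.0347 and 0.00971 ± 0.008 CPM, under 1% of the sense gene in each group. The 3 were chosen after their values were seen, for lying inside or beside the members, so that they are described without a test, and reads of overlapping genes may be shared between them despite stranded counting.

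Around Dppa3, several abundant neighbours were lower in Eo+. Of 17 neighbours tested in this window, 9 were lower in Eo+ than in ESC and 2 higher. Gdf3, a ligand of the TGF-beta family 16.3 kb upstream, fell from 129.8 ± 10.0 CPM in ESC to 20.9 ± 1.47 in Eo− and 0.994 ± 0.672 in Eo+, a log2 fold change of −2.64 ± 0.14 and −7.22 ± 0.24 (limma adjusted p = 4.53e-09 and 1.65e-11). Its Eo+ mean was 0.659 CPM without replicate 5, the one library at 2 CPM. Apobec1, a cytidine deaminase of RNA editing 23.1 kb away, was at 9.76 ± 2.32, 2.04 ± 0.14 and 0.269 ± 0.158 CPM (−5.29 ± 0.30 in Eo+, limma adjusted p = 1.76e-09). Mfap5, an extracellular microfibril gene 97.1 kb away, was also lower (−5.25 ± 0.24). Further upstream, Phc1, a Polycomb subunit gene, was lower in Eo+ (−1.62 ± 0.14) and M6pr slightly lower (−0.24 ± 0.05), while Rimklb (−0.15 ± 0.12) and the pseudogene Gm8430 (−0.03 ± 0.14) were not called.

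Downstream of Dppa3 the tested neighbours moved in both directions. Nanog, a core factor of the pluripotent state 77.2 kb downstream, was at 469.2 ± 98.2 CPM in ESC, 165.3 ± 11.8 in Eo− and 120.3 ± 37.9 in Eo+. It was called lower in both fractions than in ESC (−1.47 ± 0.17 and −1.98 ± 0.18), and its difference between the fractions missed the threshold (−0.50 ± 0.19, limma adjusted p = 0.0537) and passed it in some alternatives. The locus assembled for Nanog, chr6:122707489-122931573, spanned Foxj2 and Necap1 on the same strand. The share of its reads that came from Nanog itself was not measured. Slc2a3, the GLUT3 glucose transporter gene, was at 868.2 ± 228.7, 342.5 ± 59.7 and 716.2 ± 374.7 CPM and was lower in Eo− (−1.31 ± 0.32), and Foxj2, a forkhead factor gene, rose from 5.03 ± 0.693 to 17.7 ± 2.41 CPM in Eo+ (1.81 ± 0.13). Necap1 was lower in Eo+ (−0.82 ± 0.07), and Gm10224 was not called (−0.37 ± 0.16). The nearest named downstream locus, Gm10420 at 65.7 kb, stood at 2.04 ± 0.181 CPM in ESC and 2.16 ± 0.073 in Eo+ (0.08 ± 0.14).

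Dppa5a had one close neighbour with a like course. Ooep, 7.93 kb away, encodes a KH-domain protein of the same family that belongs to the maternal complex of the egg. Its CPM were 83.2, 99.6, 68.9 and 108.3 in ESC, 10.2, 13.6, 12.5 and 9.79 in Eo− and 0.595, 0.775, 1.02 and 0.861 in Eo+. The groups did not overlap, and the log2 fold change was −2.96 ± 0.16 in Eo− and −6.79 ± 0.25 in Eo+ (limma adjusted p = 4.83e-09 and 4.15e-11). The nearest gene on the other side, Gsta2 at 11.3 kb, was too low to be tested.

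The chromosome 9 window as a whole was mixed, with 9 of 16 tested neighbours, Ooep included, lower in Eo+ than in ESC and 3 higher. Ddx43, an RNA helicase gene of germ cells 27.6 kb away, was at 6.55 ± 1.16 CPM in ESC and 2.22 ± 0.243 in Eo+ (−1.55 ± 0.15), and Gcm1, a placental transcription factor gene, fell from 1.15 ± 0.361 to 0.0571 ± 0.0117 CPM (−4.28 ± 0.37). Gsta4 (−2.12 ± 0.10), Mb21d1 (−1.93 ± 0.17), Gm8116 (−0.69 ± 0.13), Mto1 (−0.57 ± 0.09), Gclc (−0.37 ± 0.10) and Fbxo9 (−0.26 ± 0.09) were lower, and Slc17a5 (1.28 ± 0.16), Ick (0.86 ± 0.11) and Elovl5 (0.63 ± 0.07) were higher. The translation factor locus of Eef1a1, 110.3 kb away, was at 11885.2 CPM in ESC and 11494.8 in Eo+ (−0.04 ± 0.08). Cd109 (−0.46 ± 0.22), C920006O11Rik (0.01 ± 0.19) and Rn7sk (−1.13 ± 0.59) were not called, and Rn7sk was at −1.83 and called lower without Eo+ replicate 1, and at −0.63 without ESC replicate 5. The call for Fbxo9 was lost without ESC replicate 1 (−0.22), Eo+ replicate 1 (−0.24) or Eo+ replicate 5 (−0.21).

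**Figure D3:**
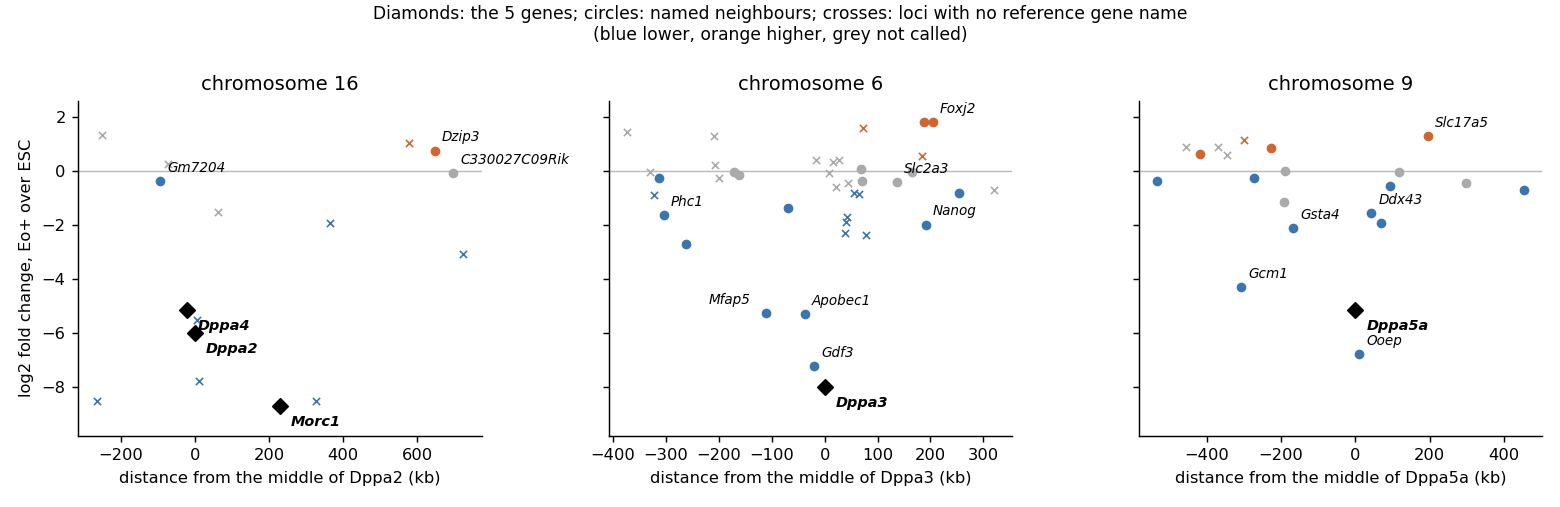
Log2 fold change of Eo+ over ESC (vertical) against distance from the middle of Dppa2, Dppa3 or Dppa5a in kb (horizontal) for tested loci within 500 kb of a member. Diamonds are the 5 genes, circles named neighbours, crosses loci with no gene name, with blue for lower, orange for higher and grey for not called: the named circles around the chromosome 16 genes lie between −0.38 and 0.76, while Gdf3 at −7.22 and Ooep at −6.79 lie beside Dppa3 and Dppa5a.

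Genes linked to the members by family, process or cell state were followed in 6 lists. They held 67 loci, of which 60 passed the filter and 9 of the 67 held more than one reference gene. Between Eo+ and ESC, 46 of the 60 were lower and 6 higher, with a median log2 fold change of −3.38. Between Eo− and ESC, 42 were lower and 6 higher with a median of −1.63, and between Eo+ and Eo−, 39 were lower and 4 higher with a median of −1.40. Over all loci, 31.1%, 27.9% and 19.7% were called lower in these comparisons. Of the 60, 11 had passed the filter through ESC alone and so had to be lower at day 3. Without them, an alternative chosen after seeing the data, 36 of 49 were lower and 6 higher in Eo+ than in ESC (median −2.32), 32 lower and 6 higher in Eo− than in ESC (median −1.22), and 30 lower and 4 higher in Eo+ than in Eo− (median −0.98). The lists were compiled with earlier results of these data known.

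Genes of the 2-cell embryo, which DPPA2 and DPPA4 are known to activate, were followed as a list of 14. Of these, 11 passed the filter, 9 of them through ESC alone, so nothing is read from how many were lower. Zscan4c and Zscan4d were the other two. Zscan4d, a zinc finger gene of telomere upkeep, was at 14.3 ± 5.99 CPM in ESC, 0.362 ± 0.187 in Eo− and 0.00211 ± 0.00422 in Eo+, the last from 1 library (limma adjusted p = 6.68e-08 for Eo− and 3.91e-06 for Eo+, both over ESC). Zscan4c went from 13.6 ± 5.24 to 0.312 ± 0.129 CPM in Eo− and to 1 read in all of Eo+. Zscan4, Tcstv and Usp17 genes are near-identical copies, so that the share of each copy is uncertain. Dux, Duxf3 and Zscan4a were not matched to a locus by name.

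Genes that write, maintain and erase DNA methylation, the process in which DPPA3 acts, did not move one way from ESC. Uhrf1, whose product DPPA3 restrains, was at 401.8 CPM in ESC, 391.7 in Eo− and 356.0 in Eo+ (−0.17 ± 0.09 for Eo+ over ESC, limma not called), on a locus it shares with Kdm4b. The maintenance enzyme gene Dnmt1 was not called either (−0.15 ± 0.11). Between Eo+ and ESC 3 of 8 genes were lower and 2 higher, with a median of −0.16, beside 31.1% and 28.3% of all loci. Between Eo+ and Eo− 4 were lower and 0 higher (median −0.52), beside 19.7% and 17.4% of all loci. The demethylase gene Tet3 rose from 7.71 ± 0.767 CPM in ESC to 17.9 ± 2.8 in Eo− and 22.9 ± 4.47 in Eo+, and the de novo enzyme gene Dnmt3b rose from 477.5 ± 63.2 to 1960.6 ± 155.0 in Eo− and 756.3 ± 192.6 in Eo+. Tet2 fell from 34.9 ± 9.77 to 3.04 ± 0.898 and 2.83 ± 0.742 CPM, and the locus of Dnmt3l and Icosl fell by 2.03 and 4.93 on the log2 scale.

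Relatives of DPPA5 and the maternal complex had 4 of 8 loci above the filter, of which Padi6 had passed through ESC alone. All 4 were lower than ESC in both fractions, beside 31.1% of all loci in Eo+ and 27.9% in Eo−. Under the filter, means in Eo− were above those in ESC for the locus of Khdc1a and Khdc1b (0.128 and 0.0464 CPM), Khdc1c (0.052 and 0.0138) and Nlrp5 (0.0544 and 0.0137). Beside Ooep, Padi6, an egg arginine deiminase gene, went from 0.529 ± 0.205 CPM in ESC to 0.066 ± 0.0227 in Eo− and 0.00433 ± 0.00362 in Eo+. Tle6 was at 6.37 CPM in ESC and 2.48 in Eo+ (−1.32 ± 0.22). The locus of Khdc3 fell by 0.63 on the log2 scale, but it also held Rab27a and Rsl24d1, so that its reads cannot be given to Khdc3.

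Other genes of the MORC family and of the silencing machinery moved in both directions. Morc2b, at 0.127 CPM in ESC, 0.0187 in Eo− and 0.0093 in Eo+, was too low to be tested. Of 9 tested, 5 were lower and 2 higher in Eo+ than in ESC, with a median of −0.32, beside 31.1% and 28.3% of all loci. Morc3 was at 120.2 ± 11.1 CPM in ESC, 62.4 ± 2.78 in Eo− and 55.5 ± 2.89 in Eo+ (−1.11 ± 0.08), and Trim28, the corepressor KAP1, went from 2526.6 ± 206.7 to 1445.9 ± 144.8 and 1195.0 ± 139.2 CPM (−1.08 ± 0.09). Morc2a fell by 0.43. Pphln1, a subunit of the HUSH complex, rose from 68.8 ± 9.12 to 215.6 ± 18.8 CPM in Eo− and 183.8 ± 22.7 in Eo+, and Morc4 from 6.8 ± 0.823 to 17 ± 11 in Eo+ with wide spread (1.13 ± 0.35, limma adjusted p = 0.011). The histone methyltransferase gene Setdb1 was not called (−0.09 ± 0.07).

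Most of the germline genes of transposon silencing in the list were lower in Eo+. Of 12 tested, 10 were lower in Eo+ than in ESC, with a median of −3.22, beside 31.1% of all loci. In Eo− 7 were lower and 1, Tdrd5, higher, beside 27.9% and 25.2% of all loci. Tdrd9, which was not called, had passed the filter through ESC alone. Between Eo+ and ESC, Tex19.1 fell most (−6.07 ± 0.21, limma adjusted p = 2.2e-11). It was at 156.8 ± 19.6 CPM in ESC, 27.6 ± 5.92 in Eo− and 2.35 ± 0.401 in Eo+. The PIWI gene Piwil2 followed in that comparison (−4.85 ± 0.27), at 9.77 ± 2.77, 2.73 ± 0.33 and 0.33 ± 0.0831 CPM. Mael, a piRNA factor, stood at 6.28 CPM in ESC, 9.01 in Eo− and 0.58 in Eo+, lower in Eo+ than in ESC (−3.52 ± 0.32) and than in Eo− (−4.06 ± 0.31).

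Regulators of pluripotency took the same direction in most cases. Of 16 tested, 13 were lower in Eo+ than in ESC and 2, Tdgf1 and Sall4, higher, beside 31.1% and 28.3% of all loci. The median was −4.17. Nr0b1, an orphan nuclear receptor, fell from 98.3 ± 25.1 CPM in ESC to 7.35 ± 1.45 in Eo− and 0.237 ± 0.0746 in Eo+ (−8.71 ± 0.37), and Esrrb, an estrogen-related receptor, from 451.7 ± 113.8 to 43.2 ± 9.84 and 3.61 ± 1.59 (−7.02 ± 0.35). Pou5f1 remained at 520.1 CPM in Eo+ (−1.32 ± 0.18). In Eo−, Utf1 was at 279.0 CPM beside 293.1 in ESC (−0.09 ± 0.18), whereas in Eo+ it was at 12.1 (−4.86 ± 0.30 over ESC).

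**Figure D4:**
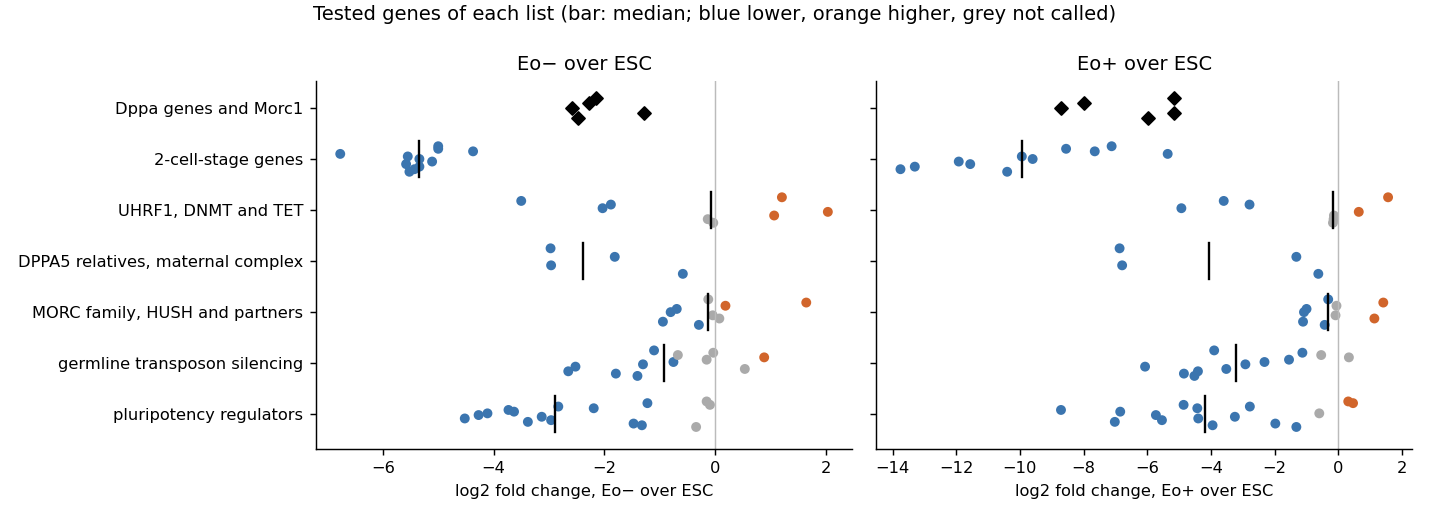
Log2 fold change of each tested gene in the 6 lists (points, one row per list) for Eo− over ESC (left) and Eo+ over ESC (right), with the list median as a bar and the 5 members as diamonds. Of the 11 points in the row of 2-cell genes, 9 passed the filter on low values through ESC alone and so had to lie below 0, and the DNA methylation and MORC lists have medians of −0.08 and −0.12 on the left and −0.16 and −0.32 on the right.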

How the data were processed

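Poly(A) RNA of 4 ESC, 4 Eo− and 4 Eo+ libraries was sequenced as stranded pairs of 100 bases. According to the submitters' processing notes, reads were aligned to mm10 with STAR 2.0.4 (the study's methods give another version), transcripts were assembled with Cufflinks 2.2.1 on Ensembl annotation, and reads per locus were counted with HTSeq 0.6.1. The values used here are the raw counts deposited by the authors for 80012 loci, of which 79655 had positions. Between 22.4% and 26.2% of reads per library were not uniquely placed, 2.65% to 3.6% fell on no feature and at most 0.0193% were ambiguous, and all of these were left out of library sizes. A deposited table of the authors' normalized values was not used here.

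CPM were computed on library sizes scaled by TMM factors (0.9037 to 1.078; edgeR 4.0.16, R 4.3.3). After the study's filter, a mean FPKM above 0.1 in at least 1 group, 30047 loci were fitted over all 12 libraries with limma 3.58.1 (voom), with Benjamini-Hochberg adjustment and a threshold of 0.05. The procedure was tested on simulated data. DESeq2 1.42.0 served as an alternative. The study's methods describe 4 differentiation sets, so the p-values measure the spread between differentiations of 1 line; no source used here says which replicate number marks which set.

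The rule for named genes took the 5 members, neighbours within 500 kb of at least 1 CPM in a group or nearest on either side, up to 2 genes per list with the largest called rise and fall without overlap, the 3 profiles most like each member, and Eomes. Other list genes and low neighbours named in the text were added after their values were seen. Members and lists were chosen with earlier results of these data known. A motif search in member promoters was planned, and promoters were not analysed here.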

Additional observations from a re-analysis of the deposited data

Results flagged for a closer look

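Each group of 4 libraries was screened for a value whose gap to its nearest neighbour took up more of the group's range than Dixon's critical value allows, which chance alone passes in about 5% of groups. Of 195 groups, 13 passed. Among the members, Dppa2 was 29.1 CPM in Eo− replicate 2 (26.2 to 26.6 in the others) and 2.71 CPM in Eo+ replicate 6 (2.22 to 2.26). Leaving these libraries out gave group means of 26.4 in place of 27.1 CPM and 2.24 in place of 2.36 CPM.

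Eo+ replicate 5 was high for Gdf3 at 2 CPM (0.594 to 0.709 in the others), for Gtsf1l at 1.39 (0.834 to 0.891), for Dnmt3b at 1044.3 (645.4 to 681.4) and for Zscan4d at 0.00843, from 6 reads, with the other libraries at 0. It was also the highest Eo+ library for 3 of the 5 members. Of the 46 list genes lower in Eo+ than in ESC, 16 were highest in this library, 12 in replicate 6, 11 in replicate 2 and 7 in replicate 1.

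The remaining values were Dzip3 at 33.6 CPM in Eo+ replicate 1 (26.9 to 27.6), Hsf2bp at 14.1 CPM in Eo− replicate 2 (10.7 to 11.1), Necap1 at 43.1 CPM in Eo− replicate 1 (39.2 to 39.7), Gclc at 60 CPM in Eo− replicate 2 (67.3 to 68.8) and Zscan4c at 0.00132 CPM in Eo+ replicate 2, from 1 read, with the others at 0. Rn7sk, a small nuclear RNA in the chromosome 9 window, was 2.32 CPM in ESC replicate 5 (0.443 to 0.724) and 1.6 CPM in Eo+ replicate 1 (0.216 to 0.242).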

How the results depend on the processing

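Over all loci, limma called 17830, 15937 and 11159 differences for Eo+ over ESC, Eo− over ESC and Eo+ over Eo−. Without a filter on low values there were 33849 and 27830 for the first pair. With at least 1 CPM in 4 libraries there were 10394, 8951 and 6929, with a 2-fold minimum 11198, 9124 and 5823, and with named loci alone, an alternative chosen after seeing the data, 11554, 9742 and 7354. Called neighbours were 25, 24 and 20, then 38 for Eo+ over ESC without the filter and 15, 14 and 12 within 200 kb. With plain library totals, which raised the median of all loci between Eo− and ESC from 0.06 to 0.20, the log2 fold changes of Dppa2, Dppa4 and Morc1 in Eo− were −2.32, −1.13 and −2.44. The cause of these shifts beyond the loci or scaling left in each alternative was not tested. Alternatives were run for the members and for 47 neighbours and list genes named by rule, not for the other list genes in the text. No called fold change among these changed sign, while 12 that were not called did, such as Rn7sk in Eo+ over Eo− (0.53, and −0.17 in 1 alternative), Dzip3 in Eo− over ESC and Tet2 in Eo+ over Eo−. The balance of higher and lower calls over all loci did turn with library totals, in Eo− over ESC to 9670 higher and 6912 lower and in Eo+ over ESC to 9011 and 8860.

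Leaving out each library in turn gave 16742 to 17785, 14214 to 16139 and 9308 to 11735 calls, 23 to 26, 22 to 24 and 16 to 22 called neighbours, and 51 to 54, 47 to 51 and 40 to 44 called list genes. For Eo+ over ESC, Dppa2 ranged from −6.05 to −5.95, Dppa3 from −8.31 to −7.72, Dppa4 from −5.23 to −5.08, Dppa5a from −5.28 to −5.06 and Morc1 from −8.98 to −8.51. For Eo− over ESC they ranged from −2.50 to −2.44, −2.39 to −2.17, −1.34 to −1.22, −2.26 to −2.05 and −2.62 to −2.53, and for Eo+ over Eo− from −3.59 to −3.49, −6.03 to −5.44, −3.96 to −3.80, −3.08 to −2.93 and −6.40 to −5.93. Among the named neighbours and list genes, 27 results moved across the threshold in some alternative, such as Phc1 in Eo− over ESC, Slc2a3 and Trim28 in Eo+ over Eo−, and Rn7sk.

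The libraries share replicate numbers across groups. Same-numbered libraries correlated between −0.02 and 0.246 in their deviations from the group means, above 0.1 in 2 of 12 pairs, differently numbered ones between −0.133 and 0.134, and 3 of 12 libraries correlated best with their own number in both other groups. Between the sorted fractions alone, the same-numbered pairs correlated at 0.079 to 0.246, 2 of 4 above 0.1, and 8 of 8 libraries correlated best with their own number (other numbers at most 0.041), a hint from the data. Since not every pair passed 0.1, a cut chosen here, the numbers were not taken as pairing. The main fit therefore ignores any pairing of the 2 fractions sorted from the same differentiation. The study's methods describe 4 differentiation sets, and no source used here ties these numbers to them. With the replicate number as a block, 18643, 16794 and 12648 loci were called for Eo+ over ESC, Eo− over ESC and Eo+ over Eo−, with 27, 25 and 22 neighbours and 54, 51 and 46 list genes, and Morc1 was at −8.69, −2.58 and −6.10.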

Other observations

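Genes of primordial germ cells, in which Dppa3 is a classical marker, moved in both directions between Eo+ and ESC. Their summed level over 7 genes was 114.1 to 151.1 CPM in ESC, 54.3 to 111.8 in Eo− and 75.4 to 107.6 in Eo+. Dazl, an RNA-binding protein gene of germ cells, was lower in Eo+ than in ESC by 5.21 ± 0.22 on the log2 scale (limma), from 6.67 to 0.178 CPM, while Kit was higher by 0.90 ± 0.23 and Prdm1 was at 17.6 CPM in ESC and 16.1 in Eo+ (−0.14 ± 0.29). Of the 7, 5 were lower and 1 higher in Eo+ than in ESC, with a median log2 fold change of −2.32, beside 31.1% and 28.3% of all loci. Between Eo− and ESC 5 were lower and 0 higher (median −1.45), beside 27.9% and 25.2% of all loci.

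Pseudogenes that share stretches of sequence with the members differed in level. Gm6798, a copy of Dppa5a on chromosome X, was at 0.519 to 0.908 CPM in ESC, 0.152 to 0.197 in Eo− and 0.0106 to 0.0375 in Eo+. Gm9788, the copy of Dppa2 on chromosome 19, was at 0.0625 to 0.0916 CPM in Eo−, and Gm14058, the copy of Dppa4 on chromosome 2, at 0.472 to 0.677. Gm15310 shares sequence with Dppa5a and lies on 1 locus with Pigp on chromosome 16. That locus was at 17.5 to 20.3 CPM in ESC, 24.3 to 31.4 in Eo− and 31.3 to 38.3 in Eo+, and its reads cannot be divided between the genes. Whether these reads came from the copies or from the parent genes was not tested.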
